A study of Mus musculus with 10 samples.

Results

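The 10 genes described here are transcriptional outputs of the RAS-RAF-MEK-ERK (MAPK) cascade in mouse pancreatic tumours: the MAP kinase phosphatases Dusp4, Dusp5 and Dusp6, the Sprouty-family inhibitors Spry2, Spry4 and Spred1, the ETS factors Etv1, Etv4 and Etv5, and Phlda1. They were chosen by symbol from a table of 55487 genes, and all 10 were present and had enough counts to be tested. RNA with polyA tails was sequenced from 10 primary pancreatic tumours of KPF mice on a C57BL/6J background, aged 6 to 12 weeks. The 5 Grem1wt/wt tumours came from mice given peanut oil, and the 5 Grem1∆/∆ tumours from mice given tamoxifen at 100 mg/kg daily. Dosing ran for 5 days from 5 weeks of age in both groups. The KPF alleles, the recombinase behind the deletion and its promoter are not spelled out in the labels, and genotype and tamoxifen cannot be told apart. Grem1, which encodes a secreted antagonist of bone morphogenetic proteins, ran from 3.97 to 43.1 CPM (counts divided by the scaled library size, on the usual per-library CPM scale) in wild-type tumours and from 6.83 to 110.1 CPM in the others. The transcript was therefore not lower in the second group, which is called labelled-deleted below.

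When growth factor receptors or oncogenic mutations switch on the cascade, active ERK phosphorylates transcription factors that induce a set of genes acting back on it. DUSP phosphatases remove phosphate from ERK, Sprouty and SPRED proteins restrain signalling at or above RAF, and the ETS factors of the PEA3 group (ETV1, ETV4 and ETV5) carry the signal into further transcription. The level of these transcripts is widely used as a readout of ERK pathway output in pancreatic and other RAS-driven cancers. It is an indirect readout, and no phosphorylated protein was measured here.

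The genes lie apart in the genome (GRCm38, called mm10; GENCODE M21). The phosphatase genes are Dusp4 (ENSMUSG00000031530) at chr8:34807297-34819894 (plus strand), Dusp5 (ENSMUSG00000034765) at chr19:53529109-53542431 (plus strand) and Dusp6 (ENSMUSG00000019960) at chr10:99263231-99267489 (plus strand). The Sprouty-family genes are Spry2 (ENSMUSG00000022114) at chr14:105891947-105896819 (minus strand), Spred1 (ENSMUSG00000027351) at chr2:117121374-117182279 (plus strand) and Spry4 (ENSMUSG00000024427) on chromosome 18. The others are Etv1 (ENSMUSG00000004151) at chr12:38779380-38870484 (plus strand), Etv4 (ENSMUSG00000017724) at chr11:101769742-101785371 (minus strand), Etv5 (ENSMUSG00000013089) at chr16:22381309-22439719 (minus strand) and Phlda1 (ENSMUSG00000020205) at chr10:111506286-111508645 (plus strand).

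Library totals ran from 10159891 to 18571519 estimated counts, and the members' own counts from 155 to 6081 per library. Labelled-deleted tumour 1 stood apart, at 125.7 on the first principal component of all tested genes (39.9% of the variance) against -38.0 to 12.3 in the others. Its summed markers were the lowest of the 10 tumours for epithelial cells (1870 CPM over 8 genes, against 3590 to 6110), fibroblasts (8000 CPM over 7 genes, against 14700 to 27800), macrophages (1150 CPM over 6 genes, against 2050 to 4490) and endothelium (120 CPM over 5 genes, against 204 to 489). Of these lists, 8 of 8 epithelial, 5 of 7 fibroblast, 3 of 6 macrophage and 4 of 5 endothelial genes were lowest there. The collagen genes carry most of the fibroblast sum, and the receptor genes Pdgfrb (353.4 CPM, the highest of the 10) and Pdgfra (226.8 CPM, next to highest) did not move with it. No marker in any of these lists was at 0 in all libraries. Between the groups, all 8 epithelial markers were lower in labelled-deleted tumours, with sums of 1870 to 5250 CPM against 4940 to 6110 CPM and a median log2 fold change of -0.46. All 6 macrophage markers (median -0.53) and all 5 endothelial markers (median -0.435) were lower too. The macrophage marker Cd68, named after its values were seen, was nearly level at -0.004. All 4 neutrophil markers were lower (median -0.291), while all 4 B-cell (median 1.205) and all 5 T-cell markers (median 0.676) were higher. Of the fibroblast markers 3 were higher and 4 lower, of the acinar 2 and 4, and of the islet 1 and 4. In these lists 0 genes passed edgeR's test. Labelled-deleted tumour 2 held 2690 CPM of intestinal markers, against at most 124 CPM in wild-type tumours. The material is bulk tissue by its description and sorted cells by its extraction protocol. In bulk tissue, fewer cells of a type and less RNA per cell cannot be told apart. Group differences of the 10 members and of the lists of other pathway and proliferation genes are given with and without labelled-deleted tumour 1. Those of the cell type markers are given only with it.

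Between the groups, 9 of the 10 members had a higher fitted mean in labelled-deleted tumours (log2 fold changes from 0.24 (Etv5) to 1.18 (Etv1)), and Phlda1 was lower at -0.28. The members' median log2 fold change was 0.45, against 0.03 over all 16565 tested genes, of which 55.1% had a positive value. None of the differences passed the test: 0 of 10 members had an adjusted p under 0.05 (edgeR quasi-likelihood test, Benjamini-Hochberg over all tested genes), with a background of 0% of genes called, and the members' adjusted p ran from 0.759 to 0.787. At an unadjusted p under 0.05 there were 2 members, Spry2 and Etv1, both higher, against 5.93% of all tested genes in either direction and 3.47% in that direction. DESeq2 called 0 members and had 2 at an unadjusted p under 0.05, against 1509 of its 31660 genes. With limma-voom 0 members were called and 0 were at an unadjusted p under 0.05, against 900 of 16565 genes. The number of members whose groups did not overlap was 0, against 0.930% of all tested genes in either direction and 0.495% with labelled-deleted tumours higher. The part of the lower epithelial, macrophage and endothelial markers in these values was not tested. Without labelled-deleted tumour 1 the median was 0.11, with 7 members higher and 3 lower.

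**Figure D1:**
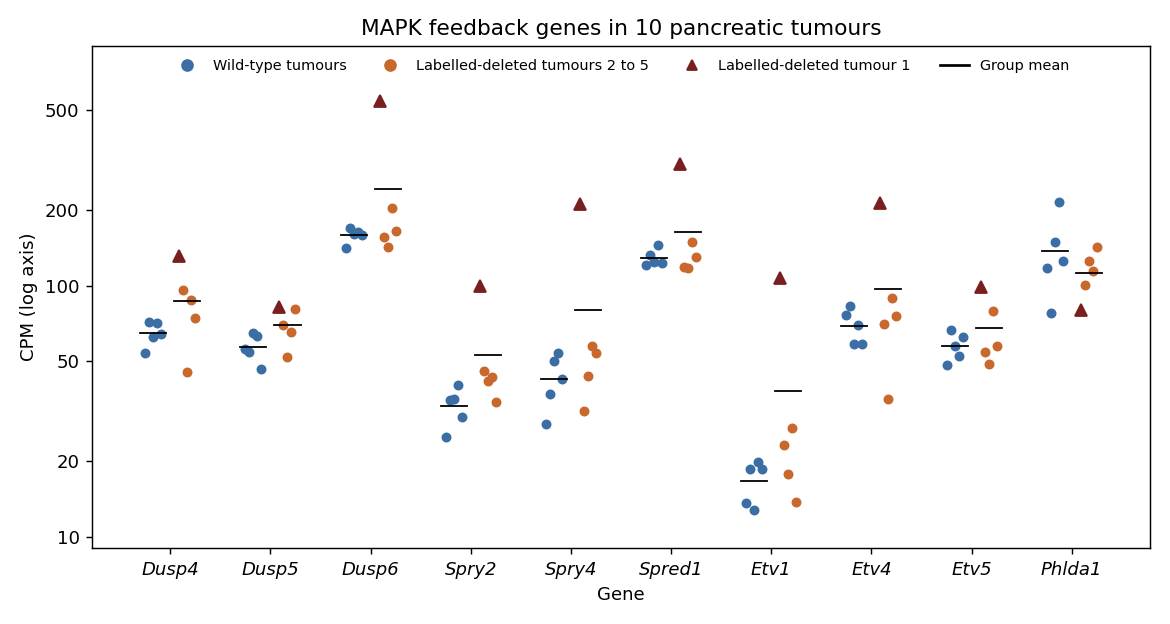
Expression of the 10 genes in CPM on a log axis, with 1 point per tumour, blue for 5 wild-type and orange for labelled-deleted tumours 2 to 5, a dark triangle for labelled-deleted tumour 1, and a bar at each group's mean. The triangle is the highest point for 9 genes and lies near the bottom for Phlda1, at 79.9 CPM.

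Among the phosphatases, Dusp6, which encodes a cytoplasmic phosphatase selective for ERK, was the steadiest in wild-type tumours. These held 141.5, 170.0, 161.1, 163.9 and 159.4 CPM, and the labelled-deleted tumours 541, 156.5, 143.1, 203.7 and 165.4 CPM. Labelled-deleted tumour 1 held 3.36 times the median of the other 9, and of the remaining 4 in its group only the fourth lay above the wild-type range. The means were 159.2 ± 10.7 and 241.9 ± 168.7 CPM (SD, n = 5), and the log2 fold change of 0.60 (SE 0.35) became 0.07 (SE 0.11) without that tumour. Within the wild-type group the SD of Dusp6 on the log2 scale was 0.10, at percentile 12.8 of all tested genes.

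Dusp4, a nuclear phosphatase for ERK and other MAP kinases, held 53.9, 71.5, 62.5, 71.3 and 64.4 CPM in wild-type tumours. Labelled-deleted tumours held 131.1, 96.3, 45.2, 87.6 and 74.3 CPM. Labelled-deleted tumours 1, 2, 4 and 5 lay above the highest wild-type tumour, and the third, at 45.2 CPM, was the lowest of the 10. The log2 fold change was 0.43 (SE 0.23), and 0.23 (SE 0.20) without tumour 1 of that group.

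Dusp5, a nuclear phosphatase selective for ERK, had the narrowest range over the 10 tumours among these phosphatases. Wild-type tumours held 55.7, 54.4, 65.0, 63.0 and 46.4 CPM and labelled-deleted tumours 82.2, 69.5, 51.8, 65.3 and 80.9 CPM. Tumours 1 and 5 of the labelled-deleted group were nearly level at the top, and the groups overlapped. Its log2 fold change of 0.30 (SE 0.14) was 0.23 (SE 0.14) without tumour 1. An exon of Dusp5 overlaps Gm50394 on the other strand, which held at most 15.6 CPM. No source used here says whether the counting was stranded.

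Promoter windows from RefSeq (GRCm38.p6, the assembly also called mm10, from 250 bases before to 50 after a start) were found for 6 members. None was found for Dusp4, Spry4, Etv4 or Phlda1. Dusp5 and Dusp6 are shown because their levels in labelled-deleted tumour 1 differed so much in size, 1.31 against 3.36 times the median of the other 9. The 250 bases before each start are printed, from chr19:53528895-53529144 (plus strand) for Dusp5 and chr10:99262981-99263230 (plus strand) for Dusp6. Capitals mark matches to the CArG box, the site bound by serum response factor, or to AGGAAGT, an ETS-type site, searched on both strands.
Dusp5: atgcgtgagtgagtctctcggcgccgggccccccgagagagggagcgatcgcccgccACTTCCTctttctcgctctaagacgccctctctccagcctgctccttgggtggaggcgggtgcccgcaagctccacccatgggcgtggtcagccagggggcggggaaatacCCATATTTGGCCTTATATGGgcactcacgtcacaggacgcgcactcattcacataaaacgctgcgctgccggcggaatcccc
Dusp6: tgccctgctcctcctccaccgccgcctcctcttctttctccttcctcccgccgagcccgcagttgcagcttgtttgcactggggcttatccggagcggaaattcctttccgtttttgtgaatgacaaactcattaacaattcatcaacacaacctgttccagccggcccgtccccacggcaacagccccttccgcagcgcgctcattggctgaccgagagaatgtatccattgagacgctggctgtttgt
Dusp5 had 2 adjoining CArG boxes, which start 82 and 72 bases before the start site, and 1 AGGAAGT match. Of all 32851 promoter windows of this length, 1.63% hold at least 1 CArG box, 0.0183% hold 2 or more, and 9.35% hold AGGAAGT. The Dusp6 window had no match to these motifs, to CCGGAA (in 14.9% of windows), to TGANTCA (7.81%) or to TGACGTCA (1.79%). CCGGAA was found in the window of Spry2, and AGGAAGT in window 1 of Etv1 and of Etv5 but not in window 2 of either. The Spred1 window had no match to any of these motifs, with labelled-deleted tumour 1 at 2.45 times the median of the other 9. Whether a match bears on a gene's level was not tested. AGGAAGT and CCGGAA share the letters GGAA, which were not searched alone and occur in each printed sequence, Dusp6 included. A match is a match of letters, and no binding was measured.

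The Sprouty and SPRED genes also peaked in labelled-deleted tumour 1. Spry4, which restrains RAS-ERK signalling downstream of receptors, held 28.1, 37.2, 49.9, 53.8 and 42.4 CPM in wild-type tumours. In labelled-deleted tumours it held 211.7, 31.7, 43.6, 57.4 and 54.1 CPM. Apart from tumour 1, at 4.86 times the median of the other 9, the groups overlapped through most of their range. The means were 42.3 ± 10.2 and 79.7 ± 74.5 CPM (SD, n = 5), and the log2 fold change of 0.91 (SE 0.48) was 0.14 (SE 0.22) without that tumour.

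Spry2, the Sprouty gene best known as a feedback inhibitor of receptor tyrosine kinases, was the member whose groups came closest to separating. Wild-type tumours held 25.0, 34.9, 35.4, 40.0 and 30.0 CPM, and labelled-deleted tumours 99.5, 45.8, 41.6, 43.3 and 34.5 CPM. Labelled-deleted tumours 1 to 4 lay above every wild-type tumour, and only the fifth, at 34.5 CPM, fell among them. The group means were 33.1 ± 5.74 and 53.0 ± 26.3 CPM (SD, n = 5). edgeR put the log2 fold change at 0.68 (SE 0.28, adjusted p = 0.759). Exact permutation of the group labels (two-sided, log2 CPM) gave an unadjusted p of 0.0318, and 0.00794 is the smallest p that 5 against 5 allows. This was the lowest of the members: the same permutation gave the others from 0.0952 (Dusp5) to 0.627 (Etv4), with 0.151 for Etv1. With tumour 1 left out, edgeR put the log2 fold change of Spry2 at 0.32 (SE 0.14, adjusted p = 0.906).

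Spred1, which brings neurofibromin to the membrane to switch RAS off, was the most even member outside labelled-deleted tumour 1. Wild-type tumours held 121.3, 132.1, 124.0, 145.4 and 123.1 CPM and labelled-deleted tumours 303.5, 118.4, 117.4, 148.8 and 129.4 CPM. The 9 tumours other than labelled-deleted tumour 1 differed by at most 1.27-fold, and that tumour stood 2.04 times above the next highest. The log2 fold change of 0.34 (SE 0.25) was -0.01 (SE 0.09) without it.

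The PEA3-group factors differed in size from each other. Etv1 had the widest range of all members: wild-type tumours held 13.6, 18.6, 12.8, 19.8 and 18.7 CPM, and labelled-deleted tumours 107.7, 23.3, 17.8, 27.1 and 13.8 CPM. Labelled-deleted tumour 1 was 5.80 times the median of the other 9 and 3.97 times the next highest tumour. Its log2 fold change between groups was 1.18 (SE 0.53; edgeR adjusted p = 0.759) and 0.30 (SE 0.21) without that tumour. Labelled-deleted tumours 2 and 4 also lay above every wild-type tumour, while 3 and 5 did not.

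Etv4 held 76.7, 82.9, 58.6, 69.9 and 58.6 CPM in wild-type tumours and 213.5, 70.0, 35.5, 88.9 and 75.5 CPM in labelled-deleted ones. The labelled-deleted group thus held both the highest tumour (the first) and the lowest (the third). The log2 fold change of 0.48 (SE 0.39) was -0.04 (SE 0.23) without tumour 1. Etv5 moved less, at 48.4, 66.5, 57.3, 52.6 and 62.6 CPM against 99.0, 54.6, 48.6, 79.3 and 57.3 CPM. Tumours 1 and 4 of the labelled-deleted group lay above all others for this gene, and the remaining 3 lay inside the wild-type range. The log2 fold change was 0.24 (SE 0.19), and 0.06 (SE 0.15) without tumour 1.

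Phlda1, a pleckstrin homology-like domain gene induced by ERK signalling, did not follow the others. Wild-type tumours held 117.3, 77.9, 149.3, 214.3 and 125.0 CPM, and labelled-deleted tumours 79.9, 100.1, 125.7, 114.1 and 142.0 CPM. Wild-type tumour 4 was the highest of the 10, and labelled-deleted tumour 1, which led for the other 9 genes, was next to lowest. The means were 136.8 ± 50.4 and 112.3 ± 23.8 CPM (SD, n = 5). The log2 fold change was -0.28 (SE 0.25), and -0.185 (SE 0.25) without labelled-deleted tumour 1. It ran from -0.44 without wild-type tumour 2, the lowest of all, to -0.06 without wild-type tumour 4. An exon of Phlda1 overlaps Gm28592 on the opposite strand, and without strand their reads cannot be told apart. Gm28592 held 18.4 to 52.4 CPM, with its highest value in wild-type tumour 4 and its lowest in labelled-deleted tumour 1.

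**Figure D2:**
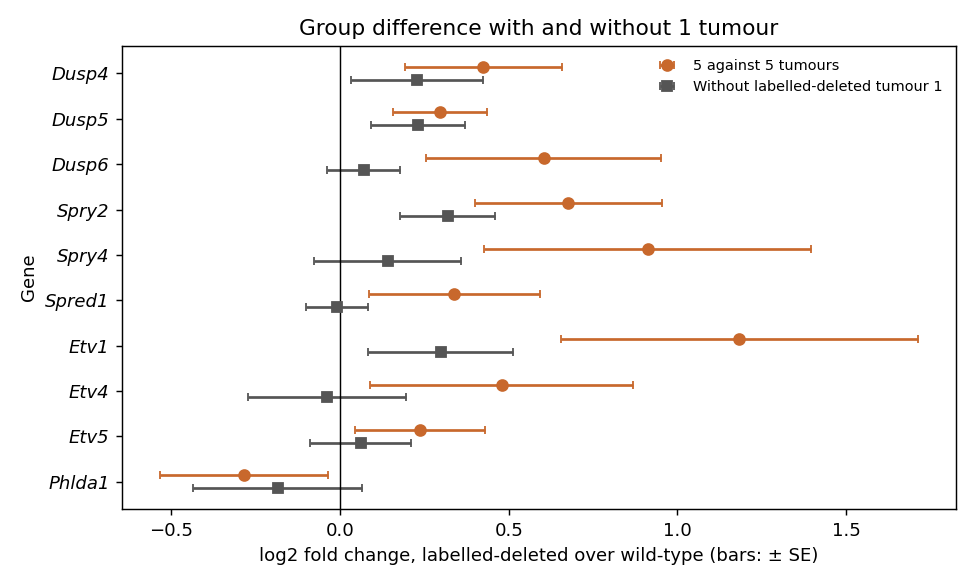
Log2 fold change of labelled-deleted over wild-type tumours for each gene with its SE as a bar, in circles for all 10 tumours and in squares without labelled-deleted tumour 1. Etv1 moves from 1.18 to 0.30 and Spry4 from 0.91 to 0.14, while Dusp5 moves from 0.30 to 0.23.

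Read by tumour, labelled-deleted tumour 1 was the highest of the 10 for 9 members, and it was the highest for 27.9% of all tested genes. It exceeded the next highest tumour by at least 1.5 times for 6 members (Dusp6, Spry2, Spry4, Spred1, Etv1 and Etv4), against 6.07% of all tested genes. The members' fold over the median of the other 9 tumours lay between percentile 76.5 (Dusp5) and 98.9 (Etv1) of all tested genes in that library for the 9 genes, and at percentile 25.4 for Phlda1. The mean of the 10 members on the log2 scale, relative to wild-type tumours, was 1.296 in that tumour, and from -0.20 (wild-type tumour 1) to 0.35 (labelled-deleted tumour 4) in the other 9. The low cell type markers of labelled-deleted tumour 1 were given above, and its summed proliferation genes reached 1160 CPM, against 359 to 622 CPM elsewhere. The part of either in the members' levels was not tested.

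Labelled-deleted tumour 4 ranked next for Dusp6, Spry4, Spred1, Etv1, Etv4 and Etv5, with folds over the median of the other 9 from 1.20 (Spred1) to 1.46 (Etv1). It lay above the wild-type mean for 9 members. At the low end, wild-type tumour 1 was the lowest of the 10 for 4 members and labelled-deleted tumour 3 for 3 members. Both ends of this order thus held tumours of the labelled-deleted group.

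**Figure D3:**
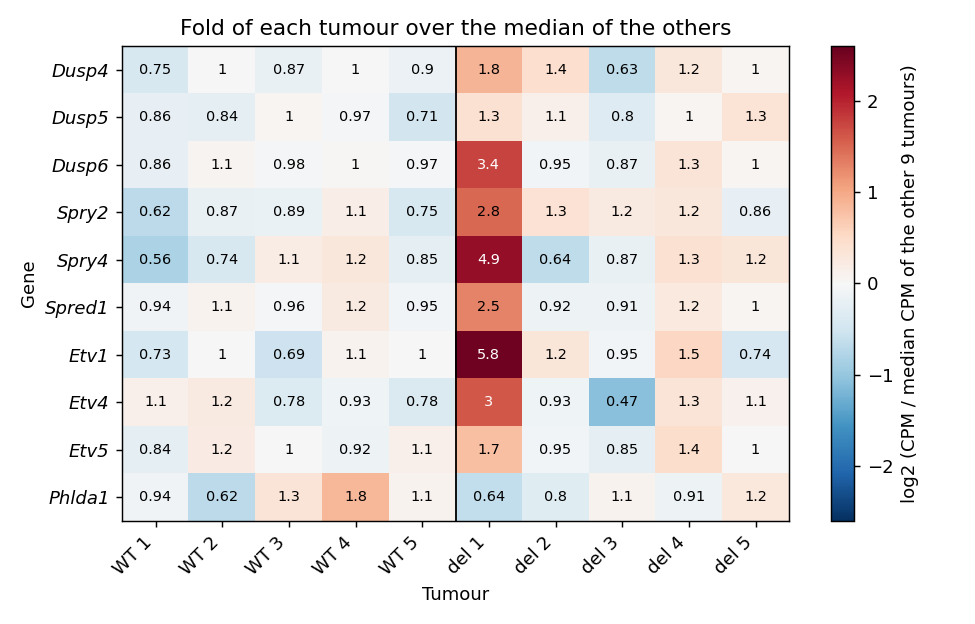
Each cell gives a tumour's CPM divided by the median of the other 9 tumours, coloured on a log2 scale, with genes in rows and tumours in columns (WT, wild-type; del, labelled-deleted). The column of labelled-deleted tumour 1 runs from 1.31 to 5.80 for 9 genes and is 0.639 for Phlda1.

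The members were then compared with each other across the 10 tumours, in 45 pairs. Pearson's r of log2 CPM was positive for all 36 pairs without Phlda1 and negative for all 9 pairs with it. After Benjamini-Hochberg adjustment over the 45 pairs, 23 passed 0.05 in a two-sided permutation test with 100000 resamples, all positive, with r from 0.72 to 0.99. The share that passes among pairs of other tested genes was not counted, so 23 of 45 cannot be called particular to the members. The relations between members rested largely on labelled-deleted tumour 1. Spearman's rho left 1 pair and leaving out that tumour left 1, and for 14 of the 23 pairs r fell below 0.5 when the 2 tumours farthest from the median of the first gene were left out.

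The tightest pair was Dusp6 with Spred1, with r = 0.99 (permutation p = 0.0002, adjusted 0.0045) and rho = 0.93 (permutation p = 0.00029, adjusted 0.013), the 1 pair that passed by rho. Its r was 0.65 without the 2 farthest tumours and 0.81 without labelled-deleted tumour 1, where the adjusted permutation p was 0.0661. Dusp6 with Etv5 had r = 0.88 (permutation p = 0.00014, adjusted 0.0045) and rho = 0.86 (permutation p = 0.0029, adjusted 0.0652). Its r was 0.82 without the 2 farthest tumours, and at 0.92 without labelled-deleted tumour 1 it was the 1 pair that passed there (adjusted permutation p = 0.0319). Spry2 with Spry4, the Sprouty pair, had r = 0.87 (permutation p = 0.0147, adjusted 0.0316) but rho = 0.48 (permutation p = 0.167, adjusted 0.250), and r was -0.11 without the 2 farthest tumours. For pairs without Phlda1, 33 of 36 kept a positive r without labelled-deleted tumour 1, and 35 of 36 had a smaller one. Of the 9 pairs with Phlda1, 4 turned positive there, and the lowest adjusted permutation p of these 9 pairs over all 10 tumours was 0.118.

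**Figure D4:**
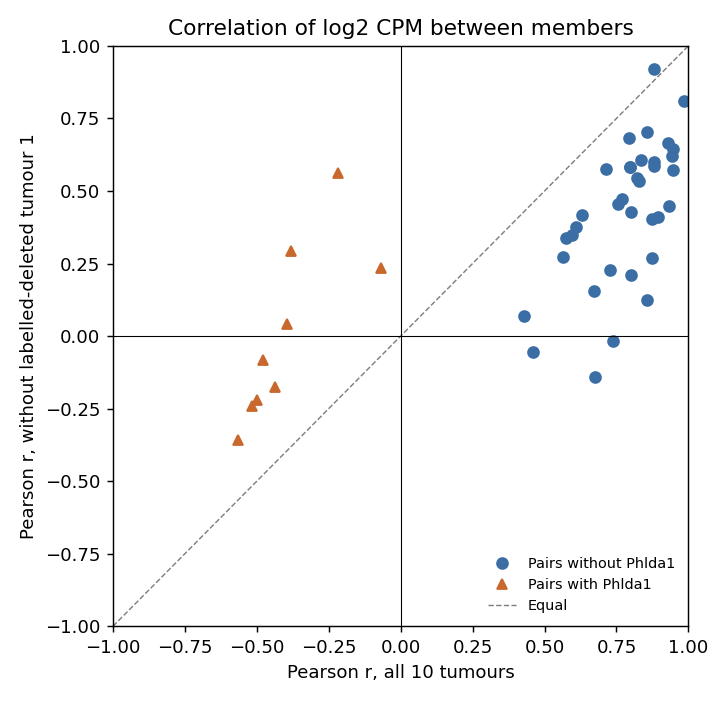
Pearson's r of log2 CPM for the 45 pairs of genes, over all 10 tumours on the x axis and without labelled-deleted tumour 1 on the y axis; circles are pairs without Phlda1 and triangles pairs with it. Of 36 circles 35 lie below the dashed line of equal values.

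Levels were also set in order per length, as CPM per kilobase of annotated exon (GENCODE M21, all exons of a gene joined). Dusp6 was at 58.3 and Phlda1 at 54.2 as geometric means over the 10 tumours, and Dusp6 was the higher in 4 of 10, so this pair was not separated (exact sign-flip permutation, adjusted p = 0.807). A step followed to Dusp4 at 26.5, lower than Phlda1 in 9 of 10 tumours (exact permutation, adjusted p = 0.0264 over 9 neighbouring pairs). Dusp4, Dusp5 (25.2), Etv4 (24.1), Spred1 (20.6) and Spry2 (19.2) formed a run in which no neighbours passed. Etv5 at 14.9 was below Spry2 in 9 of 10 tumours (exact permutation, adjusted p = 0.0293), and its step to Spry4 at 10.6 did not pass (exact permutation, adjusted p = 0.0703). Etv1 was lowest at 1.61, below Spry4 in all 10 tumours (exact permutation, adjusted p = 0.0176). The joined exons of Etv1 add up to 13.3 kilobases, more than for any other member, which lowers its value on this scale. For every member the order depends on this fixed length, and the transcripts present in the tumours were not measured. Neighbours were set by the same levels that were tested. The p-values therefore describe only the spread between tumours.

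Other genes of the pathway were read from lists chosen for what the genes do, and in all of them 0 members were called by edgeR. Of 8 other MAP kinase phosphatases, 6 were higher and 2 lower in labelled-deleted tumours, with a median log2 fold change of 0.29. The median was 0.015 without labelled-deleted tumour 1, with 5 higher and 3 lower. Dusp14 had 0.44 (SE 0.23) and Dusp2, a nuclear phosphatase of lymphocytes and other cells, 0.96 (SE 0.72). Of 5 other Sprouty, SPRED and receptor-feedback genes, 4 were tested and 3 were higher, with a median of 0.15. Without labelled-deleted tumour 1 the median changed sign to -0.043, with 2 higher and 2 lower. Errfi1, an inhibitor of the EGF receptor, had 0.34 (SE 0.24) and Spred2 0.27 (SE 0.20). Both were highest in labelled-deleted tumour 1, at 522 CPM for Errfi1 and 124.1 CPM for Spred2.

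A published score of MAPK activity in human tumours holds most of the members and 3 further genes, which had unlike ranks in labelled-deleted tumour 1. Ccnd1, which encodes cyclin D1, held 1498 CPM there against 294.1 to 897.5 CPM elsewhere. The ephrin receptor Epha2 was at 164.7 CPM, inside its range of 140.6 to 240.3 CPM. Epha4, another ephrin receptor, was at 17.1 CPM, the lowest of the 10 tumours, and was named after its values were seen. The log2 fold changes between groups were 0.69 (SE 0.41) for Ccnd1, 0.20 (SE 0.16) for Epha2 and -0.21 (SE 0.37) for Epha4. Their median was 0.20, and 0.25 without labelled-deleted tumour 1.

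Immediate early and other ERK-induced genes numbered 14, of which 10 were higher and 4 lower, with a median of 0.20. In edgeR's test 3 were at an unadjusted p under 0.05, against 5.93% of all tested genes. Egr3, a zinc finger factor, was at 1.24 (SE 0.40) and Fosl1, an AP-1 subunit, at 1.09 (SE 0.44) on the log2 scale (edgeR adjusted p = 0.759 for both). The median was 0.18 without labelled-deleted tumour 1, with the same split of 10 and 4. Of the 14 genes, 6 were highest in labelled-deleted tumour 1, Egr3 and Fosl1 among them, 4 in labelled-deleted tumour 3 and 4 elsewhere. Of the 8 other phosphatases, 3 were highest in tumour 1 and 1 in tumour 3 of that group. Of all tested genes, 27.9% were highest in labelled-deleted tumour 1, and the share for tumour 3 was not counted. Fos, Fosb and Dusp1 are described as the genes that peaked in tumour 3 by the widest margins, named after their values were seen. Fos held 370.4 CPM in labelled-deleted tumour 3, against 24.3 to 101.2 CPM in the others, with its lowest value in labelled-deleted tumour 1. Fosb held 152.7 CPM in labelled-deleted tumour 3 and at most 28.0 CPM elsewhere, and Dusp1, a phosphatase induced by stress as well as by ERK, 225.7 CPM against at most 87.0 CPM. In that same tumour 3 Dusp4, Spred1 and Etv4 were the lowest of the 10, and its mean over the 10 members was -0.16 on the log2 scale. That tumour also had the most B-cell markers, 215 CPM over 4 genes against at most 75.1 CPM in wild-type tumours, and the most T-cell markers, 61.2 CPM over 5 genes against at most 23.1 CPM. Their part in these values was not tested.

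**Figure D5:**
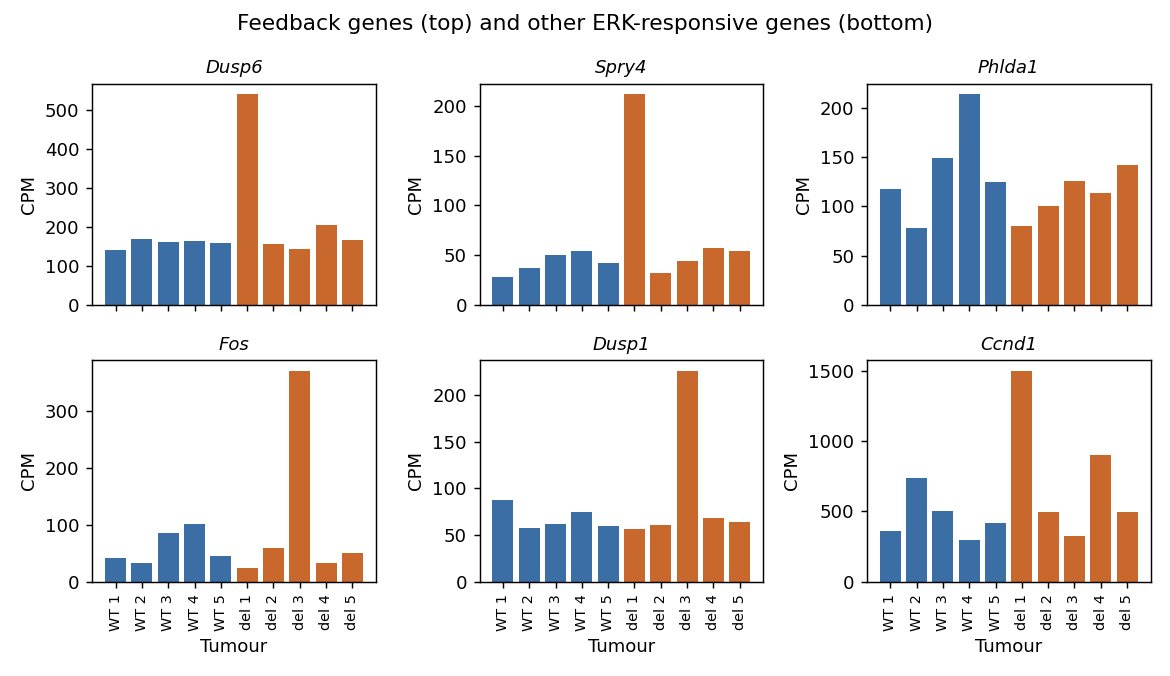
CPM of 3 of the members (Dusp6, Spry4 and Phlda1, top) and 3 other ERK-responsive genes (Fos, Dusp1 and Ccnd1, bottom) in each tumour, with blue bars for wild-type (WT) and orange bars for labelled-deleted (del) tumours, on linear axes from 0. Dusp6, Spry4 and Ccnd1 peak in labelled-deleted tumour 1, whereas Fos and Dusp1 peak in labelled-deleted tumour 3 at 370.4 and 225.7 CPM.

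The cascade itself was measured over 21 genes. From RAS to the ERK-activated kinases the median log2 fold change was 0.08, with 13 higher and 8 lower, and 0.06 with the same split without labelled-deleted tumour 1. Rps6ka3, which encodes a kinase activated by ERK, had -0.16 (SE 0.08).

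Of 9 receptors, 4 were higher and 5 lower, with a median of -0.08. Without labelled-deleted tumour 1 the median changed sign to 0.14, with 5 higher and 4 lower. Fgfr4 had a log2 fold change of -0.77 (SE 0.26, edgeR adjusted p = 0.759). Its groups did not overlap, which held for 0.930% of all tested genes in either direction. Met, the HGF receptor, had 0.27 (SE 0.11). Of 11 ligands, 7 were higher, with a median of 0.20, and 8 without labelled-deleted tumour 1, with 0.14. Ereg, an EGF-receptor ligand, had 1.16 (SE 0.39), with 34.8 and 36.4 CPM in labelled-deleted tumours 1 and 2 and at most 15.6 CPM in wild-type tumours. Btc, another, had 0.32 (SE 0.20). Of 8 further ETS genes 2 were higher and 6 lower, with a median of -0.02. Without labelled-deleted tumour 1, 3 were higher and 5 lower, with a median of -0.065. Ehf, an epithelial ETS factor, held 23.5 CPM in labelled-deleted tumour 1 against 70.8 to 104.0 CPM elsewhere, a group difference of -0.40 (SE 0.29), and Ets2 had -0.12 (SE 0.10). All 8 proliferation genes were higher, with a median of 0.48, and Foxm1 had 0.86 (SE 0.43) and Rrm2 0.69 (SE 0.38). Without labelled-deleted tumour 1 that median was 0.07, with 6 higher and 2 lower.

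For each member, the gene outside the set with the most similar order of the 10 tumours was sought among 16555 genes by Spearman's rho, as a description. Such a search over 10 shared libraries returns high values for any gene. Dusp4 had the same order as Dync1h1, the cytoplasmic dynein heavy chain (rho = 1.00). For Dusp5 the gene was Purb (0.98), for Dusp6 the elongation factor gene Supt5 (0.98), for Spry2 Mtrr (0.98), for Spry4 the forkhead gene Foxk1 (0.99) and for Spred1 Tmed7 (0.98). For the ETS factors they were Pnck (0.98), Capg (0.99) and Dip2a (0.98), for Etv1, Etv4 and Etv5 respectively. The nearest gene to Phlda1 was Acbd3 (0.96). Apart from Acbd3, each of these had its highest value in labelled-deleted tumour 1, with Capg, an actin-capping protein gene, at 386 CPM.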

How the data were processed

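Estimated counts for each gene in 10 tumours were deposited by the authors as 1 table, with 1 file per tumour of normalized log2 values for 25407 genes, whose transformation is not named. Upstream, the submitters' processing notes name HISAT2 2.2.1 and, beside it, RSEM 1.3.3, on mm10, without an order of steps. They also name FastQC 0.11.9, DESeq2 1.32.0 and bcl2fastq 2.0. No source used here gives the annotation or strand setting. Tumours were grouped by title. The count column of labelled-deleted tumour 1 lacks digits of the identifier in its title and was matched by its ending, which no other title shares. The replicates are called biological, but separate mice are not stated, so p-values measure the spread between these samples.

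Estimated counts (7.96% not whole) were rounded. Genes were filtered with filterByExpr (minimum count 10), scaled with TMM factors and compared with the robust quasi-likelihood test of edgeR 4.0.16, with Benjamini-Hochberg adjustment at 0.05. SEs came from the F statistic, and log2 CPM used a prior count of 2. Libraries of a group differed beyond sampling noise (lowest chi-square per degree of freedom 23.8). Gene coordinates and lengths are from GENCODE M21, which holds 55227 of 55487 identifiers. In data simulated for this comparison (16354 genes), edgeR recovered 2% of genes changed 1.5-fold, 30% at 2-fold, 70% at 4-fold and 92% at 8-fold, and 3.96% of calls were unchanged genes. The simulated libraries were drawn independently from each gene's mean and dispersion, and none was set apart as labelled-deleted tumour 1 was. These rates therefore need not hold for the tumours. Other software was DESeq2 1.42.0 and limma 3.58.1 in R 4.3.3, with figures by matplotlib 3.10.9 in Python 3.11.15.

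The members and lists were chosen with earlier results of these data known. Besides the 10 members, the text names Grem1, the 2 genes of each list with the smallest p, and the gene nearest to each member. Others are said to be named after their values were seen, which also holds for Gm50394 and Gm28592. Some items that the rule names are not reported here. Alternatives were DESeq2, limma-voom, other scaling, no filter, non-robust dispersions, a replicate block, the deposited log2 values, and leaving out tumours.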

Additional observations from a re-analysis of the deposited data

Results flagged for a closer look

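In 5 of the 20 groups of 5 values tested (10 members in 2 groups), 1 tumour lay far from the other 4 by Dixon's test at its 95% critical value, and it was labelled-deleted tumour 1 each time. Chance alone flags about 1 in 20 groups, and these 5 are values of the same library. That library was the highest of the 10 for 27.9% of all tested genes, and the share of them flagged by Dixon's test was not counted. The 5 flags are therefore not a result about the members. The flagged values of labelled-deleted tumour 1 were 541 CPM for Dusp6, 99.47 CPM for Spry2, 211.7 CPM for Spry4, 303.5 CPM for Spred1 and 107.7 CPM for Etv1.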

How the results depend on the processing

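Of 180 log2 fold changes of members under the alternatives, 177 kept their direction and stayed outside the threshold. The 3 exceptions changed sign: Spred1 to -0.009 and Etv4 to -0.039 without labelled-deleted tumour 1, and Etv4 to -0.057 without labelled-deleted tumours 1 and 2 together. With 1 tumour left out, Spred1 ran up to 0.435 and Etv4 up to 0.684. The number of members called was 0 in every alternative run, and all genes called were 0 except with DESeq2, which called 7. The cause was not tested. The members' median log2 fold change ran from 0.11 (without labelled-deleted tumour 1) to 0.63 (without labelled-deleted tumour 3) when 1 tumour was left out, was 0.10 without labelled-deleted tumours 1 and 2, 0.32 with limma-voom and 0.24 from the deposited log2 values. Members whose groups did not overlap numbered 0 to 1 when 1 tumour was left out: Dusp4 without labelled-deleted tumour 3, and Spry2 without labelled-deleted tumour 5. In each case the tumour left out was the one that had made the groups overlap. The share of all tested genes that did not overlap in these settings was not counted. Correlated pairs of members fell from 23 to 1 by Spearman's rho, 1 without labelled-deleted tumour 1 and 2 without labelled-deleted tumours 1 and 2, where fewer tumours were tested.

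With the replicate number of the titles as a block, 0 genes and 0 members were called (781 genes at an unadjusted p under 0.05, edgeR), and the members' median was 0.32. The labels do not say that a number pairs tumours. Deviations of same-numbered tumours correlated from -0.02 to 0.39, and 2 of 5 wild-type tumours correlated best with their own number.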
